A study of Mus musculus with 8 samples.

Results

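Integrins, laminins and collagens were read in prefrontal cortex RNA of male mice of 20 to 24 weeks, 4 of them α-Gal A(-/0) and 4 wildtype, with 1 one-colour Agilent array per mouse. The α-Gal A(-/0) mice, a model of the lysosomal storage disorder Fabry disease, lack α-galactosidase A and were on a C57BL/6 background, and wildtype mice were C57BL/6J. Both genotypes were bred as separate inbred colonies, so that genotype and colony cannot be told apart. All mice were anesthetized with isoflurane and decapitated, and whether meninges were stripped from the cortex is not given in the sources used here. Members were all probes whose gene symbol on the array is that of a numbered integrin alpha or beta chain, a laminin chain or a collagen chain, 110 probes of 76 genes among 55681 probes that are not controls. Of these, 12 genes encode integrin alpha chains, 8 integrin beta chains, 11 laminin chains and 44 collagen chains. The remaining gene, Col4a3bp, encodes a ceramide transfer protein and is no collagen. It is counted apart.

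Integrins are paired receptors of an alpha and a beta chain that span the cell membrane and tie the cytoskeleton to the extracellular matrix or to other cells. The alpha chain largely sets the ligand: some alpha chains bind collagen, others laminin, others proteins with an RGD motif, and the closely related alpha4 and alpha9 chains bind matrix proteins such as tenascin C and osteopontin and the adhesion molecule VCAM1. Laminins are trimers of an alpha, a beta and a gamma chain and form, with type IV collagen, the sheet of the basement membrane. Collagens are trimers that share the triple helix, in which glycine recurs at a fixed interval. In the brain, fibrillar collagens are made mainly by fibroblasts of the meninges and around vessels, and laminins and type IV collagen line blood vessels.

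The probes on which the results turn are given first. Each is 60 bases long and is stated with its place on the mm9 build. Whether a probe lies in an exon, an intron or an untranslated region was not read, for want of an annotation on that build. The only Itga9 probe on the array lies at chr9:118807900-118807959 and the only Col9a2 probe at chr4:120727698-120727757. The 3 tested probes of Col16a1 lie at chr4:129756457-129756516, chr4:129776333-129776392 and chr4:129776460-129776519. All of these are on the forward strand. Of Itga9 and Col9a2 the first 30 bases are printed. Of the last and the middle Col16a1 probe 30 bases are printed around AATAAA, in capitals, the letters of the common polyadenylation signal. These letters were in the probe sequence of 21 of the 110 member probes (19.1%), tested or not, and of 11.8% of all tested probes. The Col16a1 probe farther from the end of the gene is printed whole, with capitals on 5 codons of the form GGN, which all encode glycine and here stand 3 codons apart in a reading frame without a stop.
Itga9: taccttcagctttgtgtagccaaaaaagcc
Col9a2: aggggggactgaggcttctggtggtcctta
Col16a1, last probe: ttttttaacAATAAAgaaaactatttgtaa
Col16a1, middle probe: gactctactaggAATAAAtggccaaagctt
Col16a1, first probe: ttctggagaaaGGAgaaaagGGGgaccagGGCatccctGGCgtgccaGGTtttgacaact
A run of at least 5 such codons was in 3 of the 69 collagen probes, those of Col15a1, Col16a1 and Col25a1, and in 13 of the 34339 tested probes on the array. The Col15a1 probe was not tested and is not among the 13.

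Values are log2 signals, in arbitrary units of brightness, after quantile normalization over the 8 arrays, and a log2 fold change is the mean of α-Gal A(-/0) mice minus that of wildtype mice. Signals of different probes depend on their sequence, so only values of 1 probe are set against each other. Testing required that all 4 arrays of either genotype showed the probe well above background. This held for 84 member probes of 65 genes: 9 of 12 integrin alpha genes, 7 of 8 integrin beta genes, all 11 laminin genes, 37 of 44 collagen genes and Col4a3bp. The 11 genes without a tested probe were Itga2, Itga2b, Itga5, Itgb6, Col4a3, Col6a5, Col6a6, Col10a1, Col13a1, Col15a1 and Col28a1. Of these, Itga2b was above background on 3 α-Gal A(-/0) arrays and 3 wildtype arrays, Itga5 on 1 and 2, Col10a1 on 2 and 3, and Col6a5 on 0 and 3. Saturation affected 0 member probes. A probe could pass through 1 genotype alone, which favours a higher signal in that genotype.

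The 8 arrays lay on 1 slide, in 2 rows, with α-Gal A(-/0) mouse 1 beside 3 wildtype mice in one row and wildtype mouse 4 beside 3 α-Gal A(-/0) mice in the other. The number of probes above background was 29943 to 36139 on α-Gal A(-/0) arrays and 35648 to 38240 on wildtype arrays. The array of α-Gal A(-/0) mouse 2 stood apart, with the fewest such probes and the widest scatter around its genotype. The gene of α-galactosidase A itself, Gla, had log2 signals of 17.13, 17.18, 17.17 and 17.13 in α-Gal A(-/0) mice, against 17.01, 17.17, 17.06 and 17.13 in wildtype mice. It did not separate the genotypes at this bright signal, where the same normalized value recurred in α-Gal A(-/0) mice 1 and 4 and wildtype mouse 4. The probe does not settle whether Gla RNA was unchanged, and the place of the disruption within Gla is not given in the sources used here. All 7 markers of cortical excitatory neurons were tested, with log2 fold changes of -0.24 to -0.03, none called. The 7 markers of striatum, the region below the frontal cortex, all had a log2 fold change above 0, of 0.53 to 0.86 with a median of 0.62, and none was called. Their mean deviated by -0.80 to 0.91 in α-Gal A(-/0) mice and by -1.13 to 0.30 in wildtype mice, a difference of 0.66 between genotypes. The part of the dissection in the values below was not tested.

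Of the integrin, laminin and collagen genes, Itga9 and Col16a1 were lower and Col9a2 was higher in α-Gal A(-/0) cortex. At an adjusted p under 0.05, 3 of the 84 member probes were called (3.57%), 1 higher and 2 lower. On the whole array this held for 304 of 34339 tested probes (0.885%), with 0.306% higher and 0.58% lower. The 4 values of one genotype did not overlap the 4 of the other for 11 member probes (13.1%), with 3 higher and 8 lower, against 7.95% of all tested probes (3.08% higher and 4.87% lower). The threshold named in the study takes an unadjusted p up to 0.01 and a fold change from 1.2 upward. It was applied here to the p of limma's test, not to that of the study's test, which allows unequal variances. The study also kept only genes with sound hybridization on every array, so the counts here are not the study's own. The threshold was passed by 7 member probes (8.33%), 1 higher and 6 lower. Of all tested probes 3.46% passed it (1.14% higher and 2.32% lower). An unadjusted p under 0.05 was reached by 22 member probes (26.2%), 16 of them lower, against 12% of all tested probes. Log2 fold changes were below 0 for 51 member probes (60.7%), close to the 58.1% of all tested probes. Adjusted p values come from limma's test, adjusted over the whole array after Benjamini and Hochberg, and 4 mice per genotype limit what can be called.

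Itga9, the alpha9 chain, which pairs with the beta1 chain, was the member with the lowest log2 fold change. Its log2 signal was 8.50, 8.26, 8.15 and 7.77 in α-Gal A(-/0) mice, against 9.34, 9.21, 9.01 and 9.34 in wildtype mice. Every α-Gal A(-/0) mouse was below every wildtype mouse, and α-Gal A(-/0) mouse 4 was the lowest. The means were 8.17 ± 0.30 in α-Gal A(-/0) mice, against 9.23 ± 0.16 in wildtype mice (SD, n = 4 each), so that Itga9 was 2.08-fold lower, or -1.05 as log2 (standard error 0.15, adjusted p = 0.020). An exact permutation test over the 8 mice, two-sided, gave p = 0.029, the smallest that 4 against 4 allow. The direction held within each slide row, with log2 fold changes of -0.68 and -1.28, but the call did not: the adjusted p was 0.42 and 0.74 within the rows and 0.12 with slide row as a block. It also rose past the threshold without α-Gal A(-/0) mouse 3 (0.068) or without wildtype mouse 1 (0.077), 2 (0.064) or 4 (0.077), with log2 fold changes of -1.06 to -1.02.

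The other integrin alpha chains differed less. Of 12 tested alpha probes, 1 was called, that of Itga9, against 0.885% of all tested probes. Between genotypes 3 did not overlap, all lower in α-Gal A(-/0) mice, against 7.95% of all tested probes, 4.87% lower. With each gene read by its brightest probe, 7 of 9 alpha genes had a log2 fold change below 0, against 57.4% of all 23638 genes tested. Their median was -0.17, against -0.02 over all genes tested. The nearest relative of Itga9, Itga4, whose chain is best known from leukocyte adhesion, had 9.52, 9.34, 9.56 and 9.72 in α-Gal A(-/0) mice and 9.82, 9.59, 9.57 and 9.84 in wildtype mice. These overlap, with a difference of -0.17 (standard error 0.10, adjusted p = 0.54).

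Among the alpha chains that bind collagen, the first Itga1 probe had 6.78, 6.42, 6.89 and 6.75 in α-Gal A(-/0) mice, against 7.05, 7.27, 6.95 and 7.12 in wildtype mice. The genotypes did not overlap, but the log2 fold change of -0.39 was not called (adjusted p = 0.24), and the second Itga1 probe overlapped at -0.31. Itga10 had 2 tested probes that share 54 of their 60 bases, at 0.00 and -0.06, and Itga11 stood at -0.02. Among those that bind laminin, 1 probe of Itga6 had 11.35, 11.42, 11.27 and 11.38 in α-Gal A(-/0) mice and 11.59, 11.64, 11.55 and 11.55 in wildtype mice, again without overlap and not called (log2 fold change -0.23, adjusted p = 0.16). The other Itga6 probe, at 0.04, overlapped, and the files do not say whether both probes read the same transcripts. Itga3 stood at 0.07 and Itga7 at -0.11. Itga8, whose chain binds RGD proteins, stood at -0.37 (adjusted p = 0.38). Its α-Gal A(-/0) mice 1 to 3 at 8.23, 8.09 and 8.24 lay below all wildtype mice at 8.61 to 8.78, and mouse 4 at 8.81 above them. Without mouse 4 the difference was called, at -0.52 with an adjusted p of 0.023.

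Integrin beta chains gave 0 calls in 8 tested probes by limma's test, with 4 at an unadjusted p under 0.05, all lower in α-Gal A(-/0) mice. Over the whole array, 7.57% of probes were lower at that unadjusted p. Of 7 beta genes, 6 had a log2 fold change below 0, with a median of -0.16. Itgb2, the beta chain of leukocytes and microglia, had 7.45, 7.31, 7.44 and 7.73 in α-Gal A(-/0) mice and 7.88, 7.77, 8.13 and 7.69 in wildtype mice. Only α-Gal A(-/0) mouse 4 and wildtype mouse 4 crossed, and the log2 fold change was -0.39 (adjusted p = 0.27). Within the row that holds 3 α-Gal A(-/0) mice it was -0.20. Itgb7, the partner of alpha4 on lymphocytes, did not overlap, with 5.73 to 6.06 in α-Gal A(-/0) mice and 6.11 to 6.24 in wildtype mice (log2 fold change -0.27, adjusted p = 0.25). Itgb3 stood at -0.23, Itgb5 at -0.16 and the brighter probe of Itgb1, the shared partner of most alpha chains including alpha9, at -0.12. Itgb4 stood at -0.08 and Itgb8 at 0.02.

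Markers of microglia are given beside these values. All 7 had a log2 fold change below 0, as had 57.4% of all genes tested. By limma's test 2 were called, against 0.885% of all tested probes. Among them was Csf1r, a growth factor receptor of microglia, at -0.44 in its brightest probe (adjusted p = 0.012). No other Csf1r probe was called. With the test of the study's methods 0 of the 7 were called. Their mean deviated by -0.25 to -0.07 in α-Gal A(-/0) mice and by 0.07 to 0.30 in wildtype mice. The mean over the 7 beta genes deviated by -0.18 to 0.05 in α-Gal A(-/0) mice and by 0.07 to 0.10 in wildtype mice. Values below 0 were not particular to microglia. They held for all 6 markers of astrocytes and all 7 of cortical excitatory neurons, none called, but for 1 of 6 of oligodendrocytes. The mean of the astrocyte markers deviated by -0.18 to 0.06 in α-Gal A(-/0) mice and by 0.05 to 0.11 in wildtype mice. In tissue RNA, fewer cells of a type and less RNA per cell cannot be told apart. The part of the microglial or astrocyte markers in the integrin values was not tested. Of 6 markers of blood leukocytes, 5 were tested, with 0 called by limma's test and 1 at an unadjusted p under 0.05. Of these 5, 4 had a log2 fold change below 0, with a median of -0.62, and their mean deviated by -0.37 to 0.09 in α-Gal A(-/0) mice and by -0.08 to 0.39 in wildtype mice. Ptprc (-0.62) and S100a8 (-0.63) were above background on 3 α-Gal A(-/0) and 4 wildtype arrays. They passed the filter through the wildtype arrays, where they are high. Ptprc gives the median and is the marker with an unadjusted p under 0.05. The part of the leukocyte markers in the values of Itgb2 and Itgb7 was not tested.

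**Figure D1:**
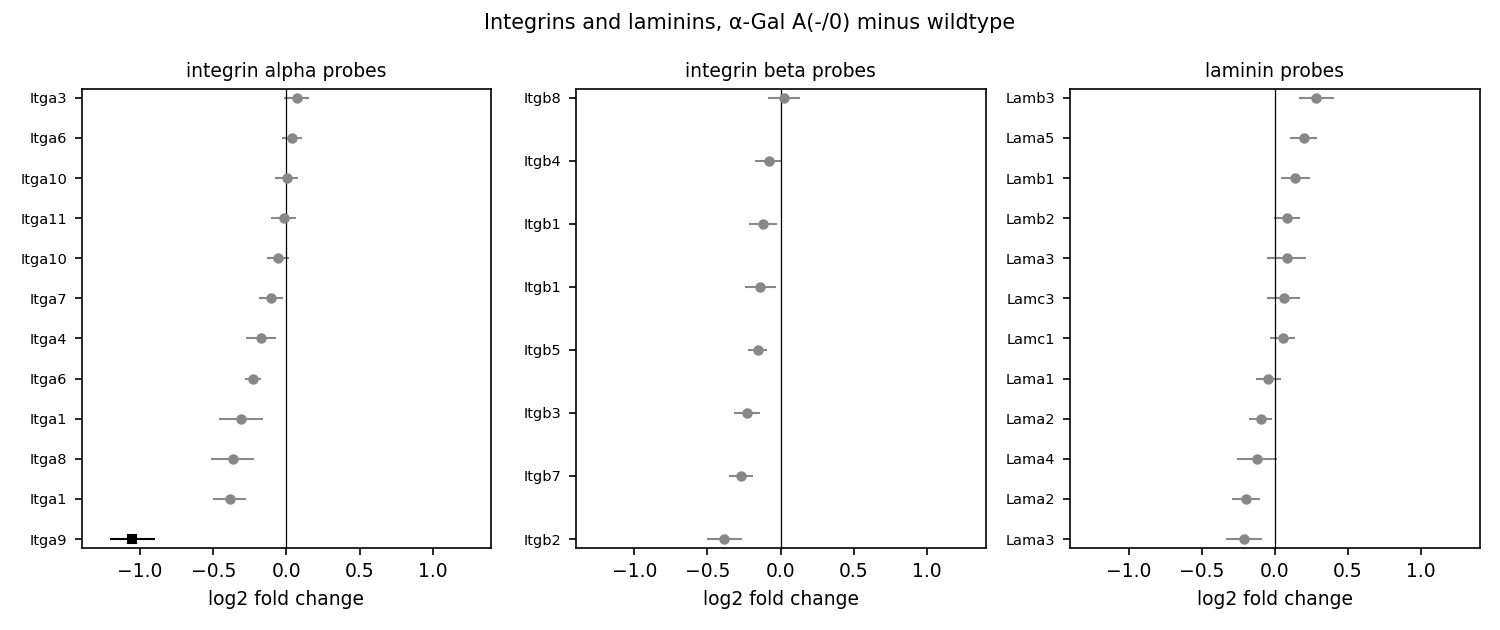
Log2 fold change (x axis, α-Gal A(-/0) minus wildtype) of each tested integrin probe and of 12 laminin probes, one row per probe, with bars of 1 standard error; black squares are called at an adjusted p under 0.05 and grey circles are not. Itga9 at -1.05 stands apart from the other integrin probes, which lie between -0.39 and 0.07, and laminin probes lie between -0.21 and 0.28.

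Genes around the integrins were read from lists drawn up by function. No gene of these lists, of the lists of basement membrane genes and of collagen processing, or of the families said below to hold 0 calls was called by the test of the study's methods, with unequal variances, either. Of 13 tested genes of integrin adhesion, such as talins, kindlins and the kinases at the adhesion site, 0 were called by limma's test and 2 had an unadjusted p under 0.05, and 10 had a log2 fold change below 0 with a median of -0.09. The lowest was Fermt3, the kindlin of blood cells, at -0.47 (adjusted p = 0.059), and Parvb, an adaptor at adhesion sites, stood at 0.23 (adjusted p = 0.33). Of the ligands of alpha9, 4 of 6 were tested, 0 were called by limma's test and 2 had an unadjusted p under 0.05, Vcam1 on the lower and Svep1 on the higher side, against 12% of all tested probes in either direction. Osteopontin (Spp1) stood at -0.63 (adjusted p = 0.42), Vcam1 at -0.25 (adjusted p = 0.39), Svep1 at 0.25 (adjusted p = 0.39) and fibronectin (Fn1) at 0.05. Tenascin C (Tnc) and Emilin1 were not well above background on any array.

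Laminin chains had the highest share of positive values among the families, and none was called in 13 probes by limma's test, with 1 at an unadjusted p under 0.05. Of 11 laminin genes, 8 had a log2 fold change above 0, with a median of 0.08. Lama5, an alpha chain of the vascular basement membrane, had 9.67, 9.61, 9.58 and 9.62 in α-Gal A(-/0) mice, against 9.17, 9.43, 9.52 and 9.57 in wildtype mice. The genotypes did not overlap by a margin of the second decimal, and the log2 fold change was 0.20 (adjusted p = 0.44). Within the row of 3 α-Gal A(-/0) mice it was 0.03. Lamb3 stood at 0.28 (adjusted p = 0.40), with 7.50 to 8.04 in α-Gal A(-/0) mice and 7.32 to 7.60 in wildtype mice. It encodes a chain of the laminin of epithelia, as does Lama3, whose probes stood at 0.08 and -0.21. Lamb1 stood at 0.14, Lamb2 at 0.08, Lamc1 at 0.05 and Lamc3 at 0.06. Lama4, the other alpha chain of vessels, stood at -0.12, Lama1 at -0.04, and the brighter probe of Lama2 at -0.10. Of 6 other genes of basement membranes, such as nidogens and perlecan, all were tested, 0 called by limma's test and 1 at an unadjusted p under 0.05. Agrn, the proteoglycan agrin, had the lowest p of them, at -0.15 (adjusted p = 0.37).

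Among the collagens, Col9a2 rose and Col16a1 fell, the second in 1 of its 3 tested probes. Both belong to the FACIT class, collagens with interrupted helices that sit on the surface of fibrils. Col9a2, a chain of the type IX collagen of cartilage, had 10.10, 10.02, 9.91 and 9.94 in α-Gal A(-/0) mice, against 9.37, 9.29, 9.27 and 9.28 in wildtype mice. The gap between the genotypes was wider than the range within either, and Col9a2 was 1.61-fold higher, or 0.69 as log2 (standard error 0.061, adjusted p = 0.0012). The other chains of type IX collagen were not called, with Col9a1 at -0.08 and Col9a3 at -0.22.

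The last Col16a1 probe had 9.17, 9.37, 9.05 and 9.21 in α-Gal A(-/0) mice, against 9.88, 9.90, 9.78 and 9.91 in wildtype mice. All 4 α-Gal A(-/0) mice were lower, and the difference was -0.67 (standard error 0.077, adjusted p = 0.0057). The middle probe, 67 bases before it, had 11.61, 11.68, 11.59 and 11.90 in α-Gal A(-/0) mice and 12.21, 12.18, 11.96 and 12.14 in wildtype mice. It did not overlap either, at -0.42, and was not called (adjusted p = 0.10), but was called without α-Gal A(-/0) mouse 4, at -0.49. The first probe, that with the glycine codons, was above background on 2 α-Gal A(-/0) and 4 wildtype arrays and overlapped, at -0.53 (adjusted p = 0.44). The remaining Col16a1 probe was above background on no array.

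Col9a2 and Col16a1 lie in one stretch of chromosome 4, between 110 and 130 Mb, where 34 of 493 tested probes were called (6.9%), 18 higher and 16 lower. The only other member there, Col8a2, a network collagen, stood at 0.39 (adjusted p = 0.58). Itga9 lies on chromosome 9 beyond 110 Mb, where 2 of 257 tested probes were called (0.778%). Both stretches were taken around the called members. The 0 calls by limma's test among the 78 tested member probes outside them follow from that choice. Of these 78, 0 were called by the test of the study's methods. By limma's test 18 of them had an unadjusted p under 0.05, a p that 12% of all tested probes reached.

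**Figure D2:**
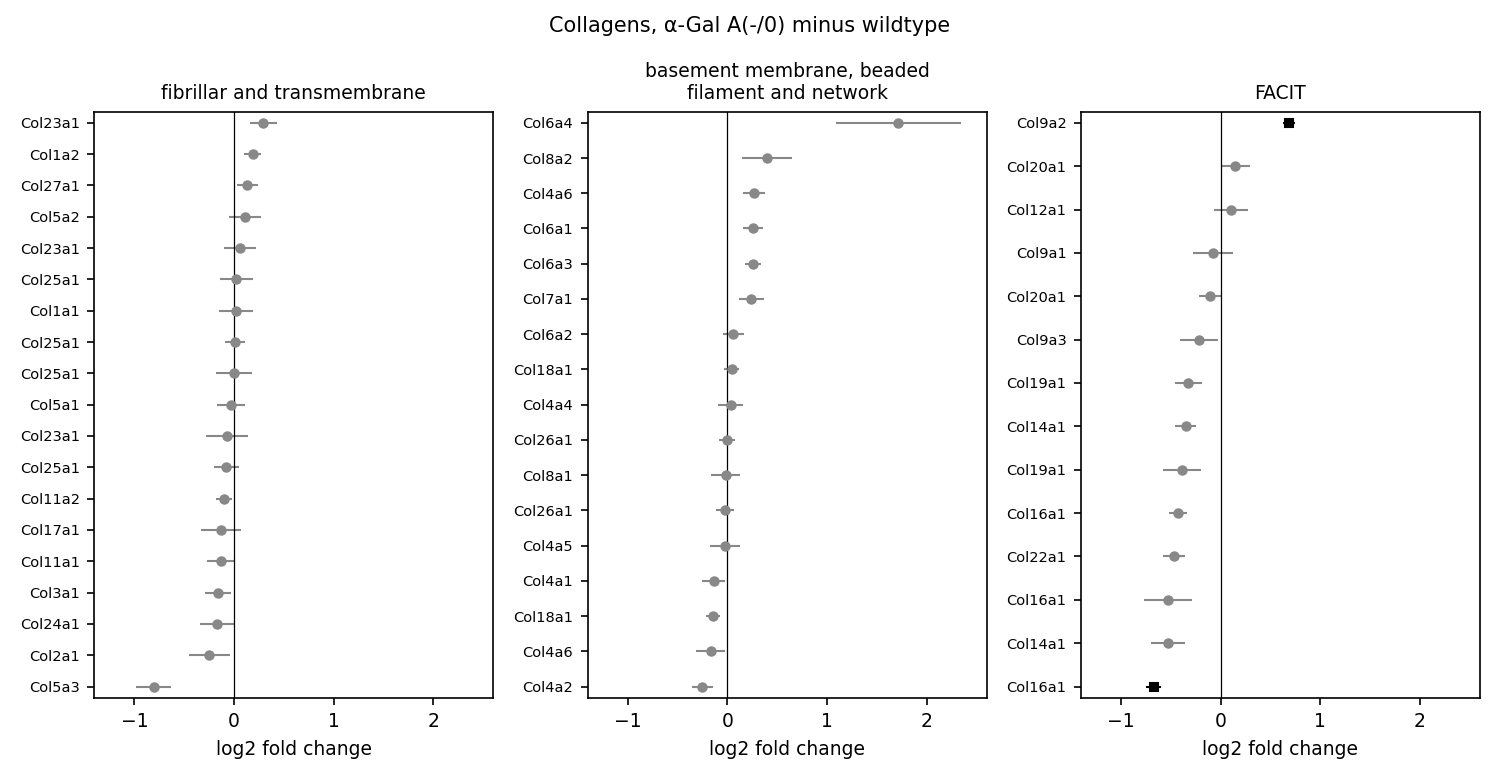
Log2 fold change (x axis, α-Gal A(-/0) minus wildtype) of each tested collagen probe by class, one row per probe, with bars of 1 standard error; black squares are called at an adjusted p under 0.05 and grey circles are not. Col9a2 at 0.69 and 1 probe of Col16a1 at -0.67 were called, and Col6a4 at 1.72 has the widest error.

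The remaining FACIT collagens were not called, and 6 of the 9 FACIT genes had a log2 fold change below 0, with a median of -0.22. Among the 6 were Col9a1 and Col9a3, above background on 3 α-Gal A(-/0) and 4 wildtype arrays. Both passed the filter through the wildtype arrays, where they are higher, and Col9a3 gives the median. Col22a1, known from junctions of muscle and tendon, had 9.01, 8.74, 8.75 and 9.10 in α-Gal A(-/0) mice and 9.57, 9.33, 9.31 and 9.27 in wildtype mice, without overlap (log2 fold change -0.47, adjusted p = 0.13). Col14a1 stood at -0.53 and -0.35 in its 2 probes, Col19a1 at -0.39 and -0.32, and Col12a1 at 0.10. The second Col14a1 probe was above background on 3 α-Gal A(-/0) arrays and the second Col19a1 probe on 2, and each on 4 wildtype arrays. These dim probes passed the filter through the wildtype arrays, where they are high.

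Fibrillar collagens, the chains of the stiff fibres of connective tissue, had a median of -0.10, with 7 of 11 genes below 0, 0 called by limma's test and 1 at an unadjusted p under 0.05. Col5a3, a chain of type V collagen, had 7.56, 7.60, 7.42 and 8.17 in α-Gal A(-/0) mice, against 8.56, 8.66, 8.18 and 8.57 in wildtype mice. Here α-Gal A(-/0) mouse 4 came next to wildtype mouse 3, and the genotypes did not overlap by 0.01. The log2 fold change of -0.81 was not called (standard error 0.17, adjusted p = 0.11), and without α-Gal A(-/0) mouse 4 it was -0.97 with an adjusted p of 0.022. The other chains of type V collagen, Col5a1 at -0.03 and Col5a2 at 0.11, overlapped. Col1a1 stood at 0.02 and Col3a1 at -0.16, and Col1a2 had 11.39, 11.54, 11.51 and 11.80 in α-Gal A(-/0) mice and 11.37, 11.36, 11.40 and 11.37 in wildtype mice (log2 fold change 0.19, adjusted p = 0.45). Its wildtype mice were close together, and within the row that holds 3 wildtype mice the difference was 0.01.

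The 3 classic chains of type VI collagen, which forms beaded filaments, had log2 fold changes above 0 and were not called. Col6a3 did not overlap, with 7.78, 7.76, 7.69 and 8.00 in α-Gal A(-/0) mice and 7.56, 7.48, 7.49 and 7.68 in wildtype mice (log2 fold change 0.26, adjusted p = 0.28). Col6a1 stood at 0.26 (adjusted p = 0.38) and Col6a2 at 0.06. Col6a4 had the largest log2 fold change of all members, 1.72, but not a call (standard error 0.63, adjusted p = 0.34). Its signals were dim, with 6.46, 5.86, 7.12 and 6.78 in α-Gal A(-/0) mice and 2.87, 5.53, 5.94 and 5.02 in wildtype mice. Of the wildtype arrays 3 showed it above background, so it passed the filter through the α-Gal A(-/0) arrays, where it is high. Normexp background correction brought the log2 fold change to 0.68. The other Col6a4 probe was above background on 1 α-Gal A(-/0) array and 0 wildtype arrays and was not tested. Of 8 genes of beaded filament and network collagens, 6 were above 0, with a median of 0.25. Transmembrane collagens stood between -0.13 for Col17a1 and 0.30 for Col23a1 in their brightest probes. Col17a1 was above background on 3 α-Gal A(-/0) and 4 wildtype arrays.

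Basement membrane collagens had 4 of 6 genes below 0, a median of -0.08 and 0 calls by limma's test, with 2 of the 6 at an unadjusted p under 0.05, against 12% of all tested probes. The main pair, Col4a1 and Col4a2, sit head to head on chromosome 8. In the GRCm38.p6 annotation of RefSeq their start sites are 21 bases apart, and the windows of 300 bases around each share 78 bases. The sequence between 44 and 15 bases before the Col4a2 start is printed with the letters CCAAT in capitals, from chr8:11312761-11312790 on the forward strand. Only the end of this sequence lies in the 78 shared bases. The letters in capitals lie almost wholly outside them, in the window of Col4a2.
Col4a2 and Col4a1, shared start region: ccgaggagctccCCAATttgttggcgctgc
These letters, read on both strands, occur 1 time in each of the windows of these genes. The occurrence in the Col4a1 window is not the one printed. Of 32851 promoter windows of that length, 37.4% hold these letters. The window of Col4a2 has 73.7% G and C, against a median of 52.7%. Col4a1 had 9.64, 9.83, 9.63 and 10.03 in α-Gal A(-/0) mice and 10.04, 9.92, 9.70 and 10.02 in wildtype mice (log2 fold change -0.14, adjusted p = 0.67). Col4a2 had 10.20, 10.18, 10.09 and 10.49 in α-Gal A(-/0) mice and 10.56, 10.58, 10.29 and 10.54 in wildtype mice (log2 fold change -0.25, adjusted p = 0.40). In both, α-Gal A(-/0) mouse 3 and wildtype mouse 3 were the lowest of their genotype and α-Gal A(-/0) mouse 4 the highest of its own. Col4a4 stood at 0.03 and Col4a5 at -0.02, and Col4a6 at 0.27 and -0.17 in its 2 probes. The second Col4a6 probe was above background on 3 α-Gal A(-/0) and 4 wildtype arrays. Col18a1, the source of endostatin, stood at -0.14 in its brighter probe.

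The collagen signal of meninges and vessels was then read mouse by mouse. A score was taken as the mean, over the tested genes of a list, of each gene's log2 signal minus its mean over the 8 mice. For 9 collagens of meningeal and perivascular fibroblasts (Col1a1, Col1a2, Col3a1, Col5a1, Col5a2, Col6a1, Col6a2, Col6a3 and Col12a1), the score was -0.08, -0.13, 0.05 and 0.33 in α-Gal A(-/0) mice, against 0.01, -0.18, -0.07 and 0.06 in wildtype mice. The genotypes overlapped and their means differed by 0.089, less than the spread within α-Gal A(-/0) mice (SD 0.20). Without α-Gal A(-/0) mouse 4 the difference was -0.0052. This mouse had the highest signal of the 8 mice in 8 of these 9 collagens, and only Col3a1 was higher in another, wildtype mouse 4.

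Markers of the same fibroblasts followed the mice in nearly the same order. The score of 11 marker genes, all tested and with no collagen among them, was -0.13, -0.11, 0.03 and 0.26 in α-Gal A(-/0) mice, against 0.01, -0.19, -0.07 and 0.20 in wildtype mice. On both scores α-Gal A(-/0) mouse 4 was first and wildtype mouse 4 second, and wildtype mouse 2 was last. None of the 11 markers was called, and their log2 fold changes ran from -0.29 for Lum, a proteoglycan of collagen fibres, to 0.52 for Slc47a1. The part of the amount of meninges in the collagen values was not tested.

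For 8 collagens and laminins of the vessel wall (Col4a1, Col4a2, Col18a1, Lama4, Lama5, Lamb1, Lamb2 and Lamc1), the score was -0.02, -0.03, -0.08 and 0.08 in α-Gal A(-/0) mice, against 0.02, 0.09, -0.11 and 0.05 in wildtype mice. The genotypes overlapped and differed by -0.023, less than the SD within either. Markers of endothelial cells had -0.13, -0.15, -0.09 and 0.13 in α-Gal A(-/0) mice and 0.07, -0.01, -0.05 and 0.23 in wildtype mice, with 8 of 10 genes below 0 and none called. Markers of mural cells had -0.02, -0.16, -0.11 and 0.03 in α-Gal A(-/0) mice and 0.08, 0.09, -0.04 and 0.14 in wildtype mice, with 7 of 8 genes below 0 and none called. Among these markers Flt1, a receptor of endothelial growth factor, stood at -0.25 (adjusted p = 0.23) and Abcc9, a channel subunit of pericytes, at -0.37 (adjusted p = 0.22).

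**Figure D3:**
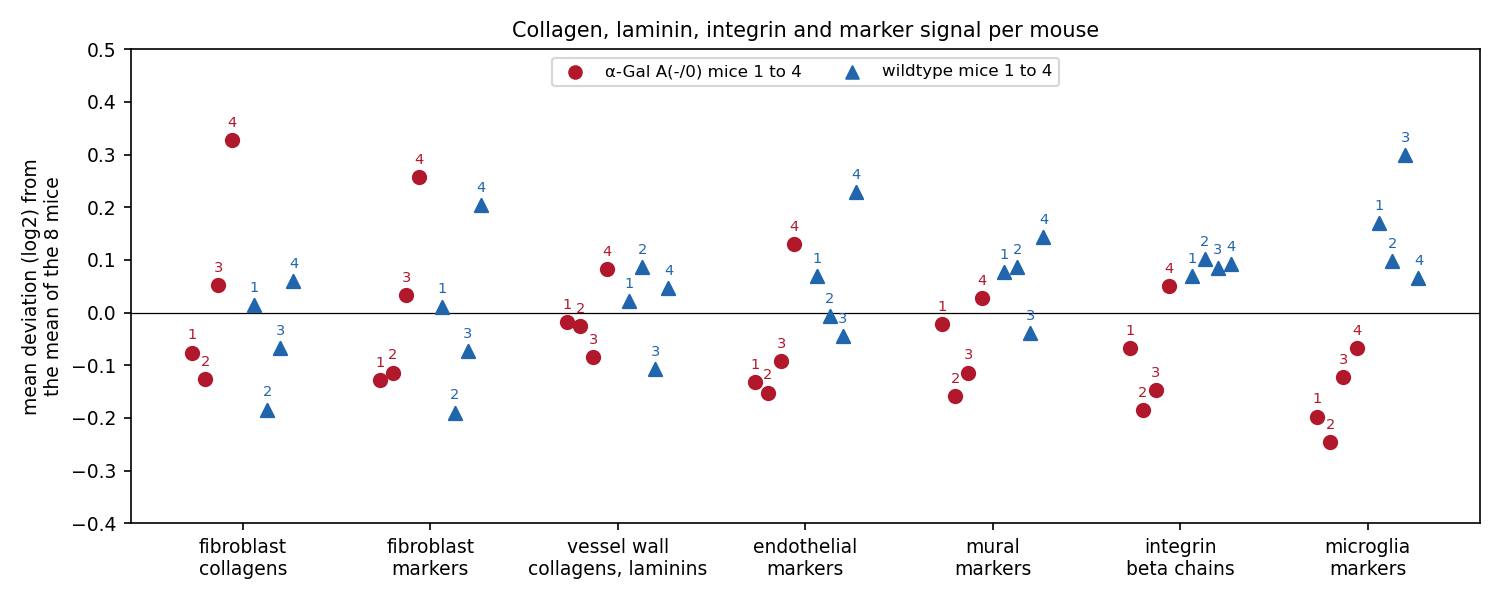
Mean deviation on the log2 scale (y axis) of each mouse from the mean of the 8 mice, for lists of collagens, laminins and integrins and for markers of the cells named, with α-Gal A(-/0) mice as red circles and wildtype mice as blue triangles; digits give the mouse. α-Gal A(-/0) mouse 4 leads both fibroblast lists, at 0.33 and 0.26, the vessel wall lists overlap between genotypes, and the integrin beta chains and the microglial markers do not. For the beta chains the margin is narrow, with 0.05 in the highest α-Gal A(-/0) mouse and 0.07 in the lowest wildtype mouse.

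Enzymes that process collagen, such as prolyl and lysyl hydroxylases and the chaperone Serpinh1, showed 0 calls in 15 tested genes of 17 by limma's test and 0 at an unadjusted p under 0.05, with a median of -0.02. Pcolce2, an enhancer of procollagen cleavage, at -0.13 (adjusted p = 0.54) and P4ha2, a subunit of prolyl hydroxylase, at -0.12 (adjusted p = 0.55) had the lowest p of them. Of further integrin genes with letters in place of numbers or related names, 6 of 9 were tested, with 0 called by limma's test and 0 at an unadjusted p under 0.05, and Itgb1bp1 stood at 0.19 and Itgav at 0.06. Col4a3bp stood at -0.18 (adjusted p = 0.60).

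The members also differed in their range over the 8 mice, which takes in the difference between genotypes. The median range over the 8 mice was 0.37 for integrin alpha genes, 0.48 for integrin beta genes, 0.50 for laminins and 0.66 for collagens. The widest were Col6a4 (4.25), Itga9 (1.57), the first Col16a1 probe (1.32) and Col5a3 (1.24). Their SD within genotypes was 1.04, 0.24, 0.39 and 0.28, in the same order. Of 15 genes with several tested probes, 9 had probes with log2 fold changes of opposite sign, with a median gap of 0.18 between the lowest and the highest. The gap was widest for Col4a6 (0.43), Col23a1 (0.36), Lama3 (0.30) and Itga6 (0.27), none of which was called with any probe.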

How the data were processed

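The deposited scanner files of the 8 arrays hold intensity values that the authors made with Agilent Feature Extraction 10.7.3.1, per the file headers corrected for gradients across the array and not yet normalized between arrays. Spots of a probe were averaged, and log2 signals were quantile normalized over the 8 arrays. Controls and 81 probes flagged as uneven were left out. A probe counts as well above background where more than 0.5 of its spots do. Genotypes were compared with lmFit and eBayes (limma 3.58.1, R 4.3.3), two-sided, over 34339 probes. The steps were tested on simulated data. A deposited table of log2 values of the whole series was not used.

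Members and gene lists were chosen with earlier results of these data known. Named were called probes with all probes of their gene, Itga9, up to 4 genes of lowest p and 3 of widest range per family, the collagens and laminins of fibroblasts and vessels, the 2 of lowest p per pathway list, and markers beside a result. Further members are named with values to complete each family, chosen after their values were seen. Replicate numbers do not pair the mice (residual correlations -0.09, 0.14, 0.01 and 0.15). The labels give 4 mice per genotype as separate samples. Of the 110 members, 102 array accessions matched RefSeq, 101 with the same symbol. Each slide row alone was added as an alternative after seeing the data. Some genes are not reported here.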

Additional observations from a re-analysis of the deposited data

Results flagged for a closer look

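Among 78 groups of 4 mice checked for 1 mouse far from the other 3, 2 were flagged. Chance alone flags about 1 group in 20, so 2 of 78 is not more than chance gives. Lamb1 was at 10.75 in α-Gal A(-/0) mouse 4, below the other α-Gal A(-/0) mice at 11.03 to 11.07. Col4a2 was at 10.29 in wildtype mouse 3, below the other wildtype mice at 10.54 to 10.58.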

How the results depend on the processing

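On the whole array, 304 probes were called, against 89 with the methods' Welch test, 156 with a replicate block, 149 with slide row as a block, 50 and 9 in the slide rows alone, and 186 to 264 with 1 mouse left out. Of members, 3 were called, against 5 with an intensity trend and robust variances, 1 with the methods' Welch test, 0 in either slide row alone, and 2 to 6 with 1 mouse left out; the 6 arose without α-Gal A(-/0) mouse 4. The replicate block left 2. Every one of the 18 alternatives kept Itga9 lower, at -1.28 to -0.68, with adjusted p from 0.0019 to 0.74, and 8 kept its call. It was lost at -1.05 without a filter on signal (adjusted p = 0.063), with the methods' Welch test (0.23) and with the replicate block (0.094), at -0.98 with slide row as a block, and at -0.68 and -1.28 in the rows alone, which hold fewer mice. With 1 mouse left out it ranged from -1.17 to -0.92. Col9a2 was called in 16 and the last Col16a1 probe in 15 of 18 alternatives; neither was called in either row alone, and Col16a1 was not with the methods' Welch test. The fibroblast score differed by -0.026 to 0.15 and the vessel score by -0.063 to 0.0015 over 15 alternatives, so neither has a settled direction. With 4 mice per genotype every value has a wide error, and signals near background, as of Col6a4 and the first Col16a1 probe, add to the error.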
